A study of Mus musculus with 6 samples.

Results

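Expression of 8 regulatory genes of the proximal tubule and its lipid metabolism was compared between kidneys of KC-Tie2 mice and kidneys of Control mice. The genes are Hnf4a, Maf, Ppara, Rxra, Nr1h4, Ppargc1a, Esrra and Esrrg, taken by symbol from the deposited table, where all 8 are among 17550 genes. In KC-Tie2 mice, used as a psoriasis model, a Tie2 transgene is expressed in skin keratinocytes, and the kidney is an organ away from the skin. There were 3 KC-Tie2 and 3 Control libraries of poly(A)-selected RNA, and the labels name the genotype only, with no strain, sex or age and no word on which alleles the Control mice carry. All kidneys were perfused with saline. Nothing in the labels ties each library to its own animal, and the p-values therefore cover the spread among these 6 libraries, which may be technical.

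Values are the deposited normalized counts, read here as reads per gene scaled by library, since the sources used here do not say how they were made. They summed to 23647811 to 25155944 in KC-Tie2 and 24288853 to 25495455 in Control libraries. Tek, the mouse gene for Tie2, had 934, 933 and 976 in KC-Tie2 kidneys and 1073, 1081 and 989 in Control kidneys, and a transgene in skin cannot be checked there. Markers of the tissue were present, with all 30 listed proximal tubule markers in the table and tested. The Y-linked gene Ddx3y had 668 to 935 in KC-Tie2 and 859 to 1006 in Control libraries, and Xist had 25.6 to 241 in KC-Tie2 and 89.3 to 415 in Control libraries. Transcripts of fat cells stood out in a pair of libraries: 5 adipocyte markers summed to 819 in KC-Tie2 replicate 1 and 1640 in Control replicate 1, against 13.3 and 43.6 in the other KC-Tie2 and 102 and 40.6 in the other Control libraries. Among them the brown fat gene Ucp1 had 138, 2.5 and 0.907 in KC-Tie2 replicates 1 to 3 and 442, 10.7 and 0 in Control replicates 1 to 3. Brown fat also uses Ppara, Ppargc1a, Esrra and Esrrg, so the values of the members are also given below without these libraries.

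The proximal tubule reabsorbs most of the glomerular filtrate and burns fatty acids to pay for it. HNF4A, a nuclear receptor, sets the differentiated state of its cells. PPARA is a nuclear receptor opened by fatty acids, which binds DNA together with RXRA at direct repeats of a nuclear receptor half-site and switches on genes of fatty acid oxidation. NR1H4, also called FXR, is the bile acid receptor and also pairs with RXRA, while the coactivator PGC-1alpha, encoded by Ppargc1a, works with PPARA, HNF4A and the estrogen-related receptors ESRRA and ESRRG on mitochondrial genes. MAF is a transcription factor of the basic leucine zipper class, found in tubule cells and also in macrophages.

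The promoters of the 3 members with the lowest log2 fold changes, Ppara, Nr1h4 and Hnf4a, are shown to set their sequence features beside their values. The sequences are RefSeq promoter windows on GRCm38.p6, from 250 bases before to 50 after an annotated start, each given 5′ to 3′ on the gene's own strand. Hnf4a has a pair of windows, at chr2:163506607-163506906 and chr2:163546905-163547204 on the plus strand. Nr1h4 lies at chr10:89506609-89506908 on the minus strand and Ppara at chr15:85735526-85735825 on the plus strand. Capitals mark matches to the motifs searched.
Hnf4a upstream window: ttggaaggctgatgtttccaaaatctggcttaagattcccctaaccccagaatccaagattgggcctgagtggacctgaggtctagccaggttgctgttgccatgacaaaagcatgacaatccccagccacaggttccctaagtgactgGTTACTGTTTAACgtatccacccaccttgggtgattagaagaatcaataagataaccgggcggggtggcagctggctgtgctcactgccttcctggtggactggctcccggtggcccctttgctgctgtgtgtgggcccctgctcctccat
Hnf4a downstream window: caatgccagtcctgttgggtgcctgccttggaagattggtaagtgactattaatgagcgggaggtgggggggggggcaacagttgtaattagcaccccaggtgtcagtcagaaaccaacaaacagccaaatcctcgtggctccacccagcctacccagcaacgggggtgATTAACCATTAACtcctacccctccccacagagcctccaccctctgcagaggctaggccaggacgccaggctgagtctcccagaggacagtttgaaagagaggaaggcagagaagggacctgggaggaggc
Nr1h4 window: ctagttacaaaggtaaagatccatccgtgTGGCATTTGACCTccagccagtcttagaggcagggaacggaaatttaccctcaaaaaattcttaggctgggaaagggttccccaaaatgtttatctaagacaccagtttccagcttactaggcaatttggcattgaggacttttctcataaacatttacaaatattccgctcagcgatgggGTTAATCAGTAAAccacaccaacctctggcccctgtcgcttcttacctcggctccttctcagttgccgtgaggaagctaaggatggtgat
Ppara window: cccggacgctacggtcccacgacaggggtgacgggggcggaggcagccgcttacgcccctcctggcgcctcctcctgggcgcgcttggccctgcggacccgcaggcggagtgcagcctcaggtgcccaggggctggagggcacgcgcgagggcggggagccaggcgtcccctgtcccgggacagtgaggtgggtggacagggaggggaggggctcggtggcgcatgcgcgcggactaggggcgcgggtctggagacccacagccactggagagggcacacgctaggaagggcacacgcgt
On both strands, 6 motifs were searched: the nuclear receptor half-site AGGTCA, its direct repeat (AGGTCA, any base, AGGTCA) with up to 2 mismatches, the extended half-site TCAAGGTCA of the estrogen-related receptors, the HNF4 site CAAAGTCCA, the HNF1 site (GTTAAT, any base, ATTAAC) with up to 2 mismatches, and the E-box CACGTG. The direct repeat contains the half-site, so these matches can overlap, as they do in the Nr1h4 window.

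A match to the HNF1 site lay in 3 of the 12 windows found for 7 of the members (both Hnf4a windows and the Nr1h4 window), against 1.36% of 32851 windows of all genes. The half-site lay in 2 of 12 windows, those of Nr1h4 and the downstream window of Rxra, against 16.3% of all windows, and the same 2 held the direct repeat, against 3.86%. The extended half-site (0.423% of all windows), the HNF4 site (0.475%) and the E-box (7.15%) lay in 0 of the 12. The Ppara window held none of the 6. Maf is named only. A match describes letters in a short window and says nothing of binding.

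Per kilobase of exon, Hnf4a was far above the other members, with 4078 ± 289 normalized counts per kilobase in KC-Tie2 and 4684 ± 178 in Control kidneys (SD, n = 3 each), and lay at percentile 98.9 of the 13604 tested genes with a length. Esrra followed with 995 ± 32.0 and 952 ± 22.6 per kilobase in KC-Tie2 and Control kidneys, then Maf with 969.5 ± 90.8 and 916 ± 134, Nr1h4 with 798 ± 187 and 909.7 ± 117, and Rxra with 775 ± 19.9 and 806 ± 25.8. The lowest were Ppargc1a with 575 ± 21.6 and 512 ± 59.5, Ppara with 419.5 ± 26.4 and 588 ± 161, and Esrrg with 447 ± 53.6 and 437 ± 32.4. In this order the library ranges of Hnf4a and Esrra, and those of Rxra and Ppargc1a, did not overlap in either genotype. The neighbours from Esrra to Rxra overlapped in both genotypes, as did Ppara and Esrrg, while Ppargc1a lay apart from Ppara in KC-Tie2 kidneys alone. Lengths are unions of coding transcripts' exons in GENCODE M21.

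**Figure D1:**
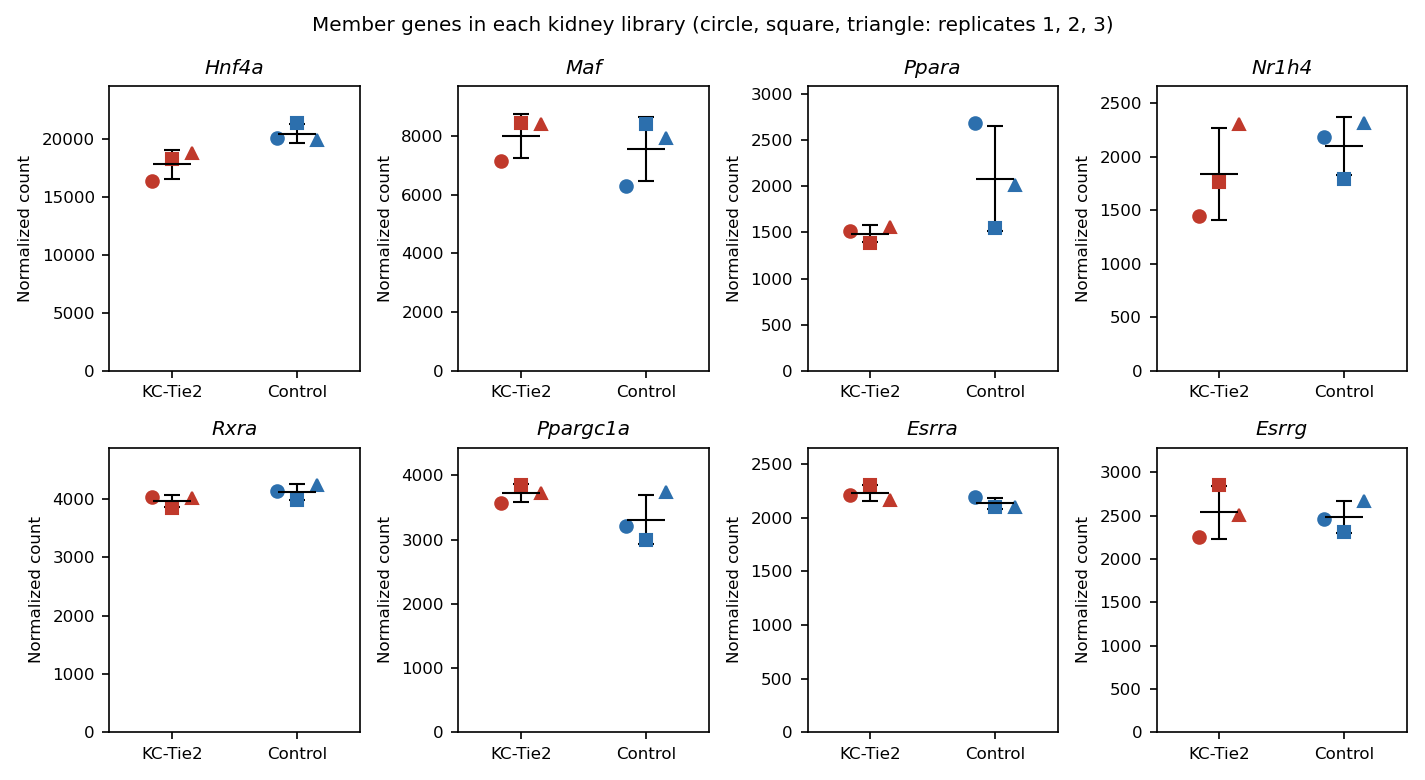
Normalized counts of the 8 member genes (vertical axes from 0) in each library, with KC-Tie2 left of Control. Points are libraries, the bar is the mean and the whiskers are the SD. Hnf4a is the only member whose groups do not overlap, and Ppara is highest in Control replicate 1, at 2682.

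None of the 8 members passed the test across the whole table. With limma on log2(value + 1), adjusted over 17539 genes tested, 0 of 8 members were called, against 1.69% of all genes tested (0.855% higher and 0.838% lower). At an unadjusted p under 0.05 there was 1 of 8, Hnf4a, where 15.3% of all genes passed, 7.57% higher and 7.77% lower. The authors' deposited table calls 1 of 8, Ppara, where 3.91% of all genes tested have a step-up FDR under 0.05 there, 1.82% higher and 2.08% lower. Of the members, 4 had log2 fold changes below 0 and 4 above, with a median of -0.015, and the median of all genes tested was 0.0012.

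Hnf4a (ENSMUSG00000017950, chromosome 2, 163348728 to 163414830, mm39) had 16364, 18247 and 18755 normalized counts in KC-Tie2 kidneys, against 20069, 21324 and 19905 in Control kidneys. All 3 KC-Tie2 libraries lay below all 3 Control libraries. Of the 8 members it was the 1 whose groups did not overlap, which 20.0% of all genes tested showed in either direction. The means were 17789 ± 1259.6 in KC-Tie2 and 20433 ± 776 in Control kidneys (SD, n = 3 each), a log2 fold change of -0.20 ± 0.08 (SE) with a 95% interval from -0.37 to -0.029. It was -0.096 with quantile normalization (limma adjusted p = 0.568) and -0.16 without both libraries with adipocyte transcripts (limma adjusted p = 0.765). With all libraries the limma adjusted p was 0.245, and an exact two-sided permutation test gave p = 0.10, the smallest that 3 against 3 allows. The noncoding gene Hnf4aos overlaps Hnf4a on the other strand, and with strand use in counting not given in the sources used here, their reads cannot be told apart. Hnf4aos had 97.7, 103 and 132 in KC-Tie2 and 191, 140.4 and 191 in Control kidneys (limma adjusted p = 0.101). In bulk tissue, fewer proximal tubule cells and less RNA per cell cannot be told apart.

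The 30 proximal tubule markers summed to 560289, 619566 and 696498 in KC-Tie2 libraries, below the 840039.8, 719506 and 844114 of the Control libraries. The most abundant of them, Lrp2, Kap and Slc34a1, weigh most in the sum, which does not stand for each marker. Their log2 fold changes differed, with -0.98 for Kap, -0.20 for Lrp2 and -0.22 for Slc34a1. Of the 30 markers, 1 rose and 1 fell, 3 were higher and 12 lower at an unadjusted p under 0.05, and the authors' deposited table calls 2 higher and 7 lower. In all 23 were below 0, and the median log2 fold change was -0.17, against 0.0012 over all genes. With quantile normalization 18 of 30 were below 0. Slc13a1, a sodium-sulfate cotransporter, rose with 14092, 14385 and 9264 in KC-Tie2 against 6259, 5632 and 5529.7 in Control kidneys (2.13-fold, limma adjusted p = 0.0339). Ggt1, the brush border gamma-glutamyltransferase, fell with 12072, 13368 and 14706 in KC-Tie2 against 17620.1, 16713 and 21134 in Control kidneys (1.38-fold lower, limma adjusted p = 0.0473). Both calls were lost without KC-Tie2 replicate 1 or 2, without Control replicate 1 or 3, and without both libraries that hold adipocyte transcripts. That of Slc13a1 was also lost without Control replicate 2, with quantile normalization and with voom, and that of Ggt1 with a mean of at least 100 and with eBayes without robust. Of 10 tubular injury genes none was called by limma, 3 were higher at an unadjusted p under 0.05, and the authors' deposited table calls 2 higher. They summed to 66758, 88949 and 43692 in KC-Tie2 and 20289, 21746 and 16458 in Control libraries. The sum does not stand for each gene: their log2 fold changes ran from -0.061 to 2.21, with a median of 0.32. The largest ratio among them in the authors' deposited table was 4.85, for Spp1. The part of these marker sums in the Hnf4a values was not tested.

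Other transcription factors of the tubule gave no call in limma. Of 10 tested, 7 were below 0, with a median log2 fold change of -0.13. At an unadjusted p under 0.05, 2 were lower and 0 higher, and the authors' deposited table calls 1 lower. With library weights and without Control replicate 2, limma called 1 of them lower. Mlxipl, which encodes the carbohydrate response factor ChREBP, had 3651, 3561 and 3719.9 in KC-Tie2 and 4346, 4189 and 4776 in Control kidneys, groups that do not overlap (log2 fold change -0.28 ± 0.07, limma adjusted p = 0.075). The close relative Hnf4g was low, with 132, 143 and 156 in KC-Tie2 and 173, 144.5 and 215 in Control kidneys. The within-library log2 ratio of Hnf4a to Hnf4g averaged 6.94 ± 0.041 in KC-Tie2 and 6.86 ± 0.34 in Control kidneys (SD, n = 3 each), which an exact permutation test did not separate (p = 0.70).

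Ppara (ENSMUSG00000022383, chromosome 15, 85619184 to 85687020, mm39) had the lowest log2 fold change of the members. It had 1514, 1379.6 and 1559 normalized counts in KC-Tie2 kidneys, against 2682, 1545 and 2016 in Control kidneys. The KC-Tie2 libraries lay close together, and the Control libraries were spread, with replicate 2 inside the KC-Tie2 range. The means were 1484 ± 93.3 in KC-Tie2 and 2081 ± 571 in Control kidneys (SD, n = 3 each), a log2 fold change of -0.45 ± 0.20 (SE, 95% interval -0.94 to 0.039). It was not called by limma (adjusted p = 0.364, exact permutation p = 0.20), whereas the authors' deposited table gives a ratio of 0.713 and a step-up FDR of 0.0367.

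The Ppara difference depended on which Control library was left out. Without Control replicate 2, limma called it lower, with a log2 fold change of -0.65 and an adjusted p of 0.0226, while in the other 15 of the 16 alternatives the adjusted p was at least 0.111 and at most 0.636. Without Control replicate 1, the library with the highest adipocyte sum, it was -0.25, and without both libraries with adipocyte transcripts -0.27 (limma adjusted p = 0.681). The other library with adipocyte transcripts, KC-Tie2 replicate 1, was not high in Ppara, at 1514. The part of fat cell transcripts in the Ppara values was not tested.

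Among 12265 genes with a mean of at least 50, the genes closest to Ppara over the 6 libraries, by the root mean square difference of centred log2 values, were Lgals4 (0.046), Col27a1 (0.092) and Tef (0.10). Lgals4 encodes a galectin, Col27a1 a fibrillar collagen and Tef a transcription factor of the clock output. Tef had 5919, 5180.01 and 5692 in KC-Tie2 and 9137, 5101 and 8104 in Control kidneys (limma adjusted p = 0.527). The 16 tested clock and clock output genes summed to 21266, 19094 and 20472 in KC-Tie2 and 27995, 18648 and 26127 in Control libraries. Control replicate 2 was the lowest in this sum. Tef, found by its likeness to Ppara, is among the 16, so the sum is not independent of that pick. With the genes weighted alike, their mean centred log2 values were 0.05, -0.082 and -0.038 in KC-Tie2 and 0.207, -0.204 and 0.068 in Control libraries. Of these 16 genes none was called by limma, 2 had an unadjusted p under 0.05, and the authors' deposited table calls 1. The part of the clock in the Ppara values was not tested.

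**Figure D2:**
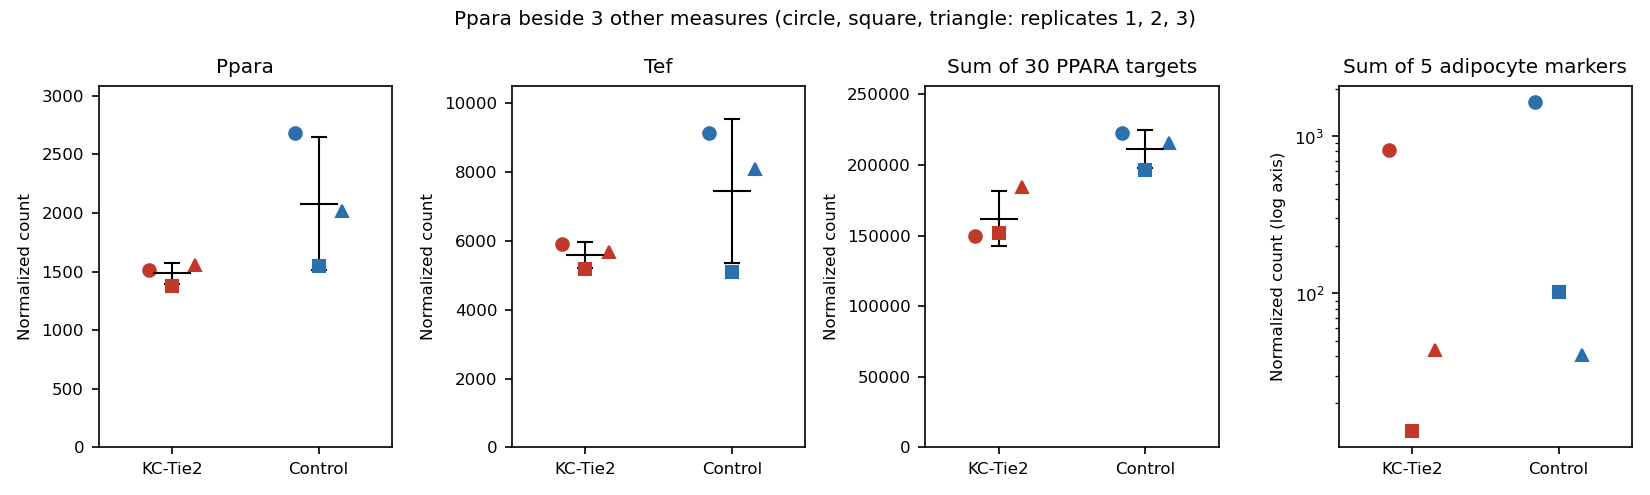
Normalized counts of Ppara and Tef, the sum of 30 PPARA target genes and the sum of 5 adipocyte markers (log axis) in each library, with KC-Tie2 left of Control; bars are means and whiskers SD. Control replicate 2 lies with the KC-Tie2 libraries for Ppara, at 1545, and for Tef, at 5101. It lies above all of them for the target sum, in which Slc27a2 weighs most.

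Of 30 PPARA target genes tested, 5 fell and none rose. The share fallen was 16.7%, against 0.838% of all genes tested. In all 26 targets were below 0, or 86.7% against 49.7% of all genes. The count below 0 was also 26 with TMM scaling and with quantile normalization, and 25 with voom. The median log2 fold change was -0.27, against 0.0012 over all genes. The 30 proximal tubule markers leaned the same way, with 23 below 0 and a median of -0.17. At an unadjusted p under 0.05, 17 targets and 12 of these markers were lower. For the targets too, fewer proximal tubule cells and less RNA per cell cannot be told apart in bulk tissue. The targets summed to 149735, 151996 and 184557 in KC-Tie2 libraries, all below the 222549, 196653 and 215269.9 of the Control libraries. The sum does not stand for each gene. Slc27a2 weighs most in it, with means of 53608 in KC-Tie2 and 71356 in Control kidneys, and was not called (limma adjusted p = 0.0684). Fatty acid oxidation, in which the genes described next act, is the best known task under PPARA control.

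Acaa1b, a peroxisomal thiolase (chromosome 9, 118977091 to 118986161, mm39), fell by 0.71 ± 0.11 on the log2 scale, with 3119, 2794 and 3572 in KC-Tie2 against 5891, 5075 and 4568 in Control kidneys (limma adjusted p = 0.0163). Acaa1b has a close paralog, Acaa1a, so the share of reads counted for it is uncertain. Ehhadh, the peroxisomal bifunctional enzyme, fell, with 9442, 10045.5 and 13774 in KC-Tie2 against 18146, 17199 and 16712 in Control kidneys (log2 fold change -0.67 ± 0.13, limma adjusted p = 0.0409). Cpt2, the carnitine palmitoyltransferase of the inner mitochondrial membrane, fell, with 2237, 2317 and 2708 in KC-Tie2 against 3489, 3043 and 3149.7 in Control kidneys (log2 fold change -0.42 ± 0.09, limma adjusted p = 0.0354). Eci2, an enoyl-CoA isomerase, fell, with 1216, 1229 and 1488 in KC-Tie2 against 1912, 1580.2 and 1802 in Control kidneys (log2 fold change -0.43 ± 0.10, limma adjusted p = 0.0489). All 3 KC-Tie2 libraries lay below all 3 Control libraries for each of these genes, and KC-Tie2 replicate 3 was the closest to the Control values.

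Most of the targets were not called by limma. Cd36, a fatty acid transporter, had 2826, 2581 and 4409 in KC-Tie2 and 6464, 5325 and 8367 in Control kidneys, groups that do not overlap (log2 fold change -1.05 ± 0.28, limma adjusted p = 0.181). Cyp4a14, a fatty acid omega-hydroxylase often used to read PPARA activity, had 3426, 3562 and 5688 in KC-Tie2 and 2541, 1691 and 323 in Control kidneys, with all KC-Tie2 libraries above all Control libraries (log2 fold change 1.88 ± 0.91, limma adjusted p = 0.446). Reads of Cyp4a14 and Cyp4a10 can be split among close copies of the family, so these values are uncertain. The authors' deposited table calls 10 of the 30 targets lower and 0 higher, where 2.08% of all genes tested are called lower there.

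The count of fallen PPARA targets depended on single libraries. It was 0, 0 and 9 without KC-Tie2 replicate 1, 2 and 3, and 0, 8 and 1 without Control replicate 1, 2 and 3. Without both libraries with adipocyte transcripts it was 0, with 24 of 30 targets still below 0 and a median of -0.17. Among the genes named above, the call of Eci2 was also lost with TMM scaling, with a mean of at least 100 and with eBayes without robust, that of Cpt2 with eBayes without robust, and that of Ehhadh without Control replicate 2. Without Control replicate 3, Acaa1b alone was called.

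**Figure D3:**
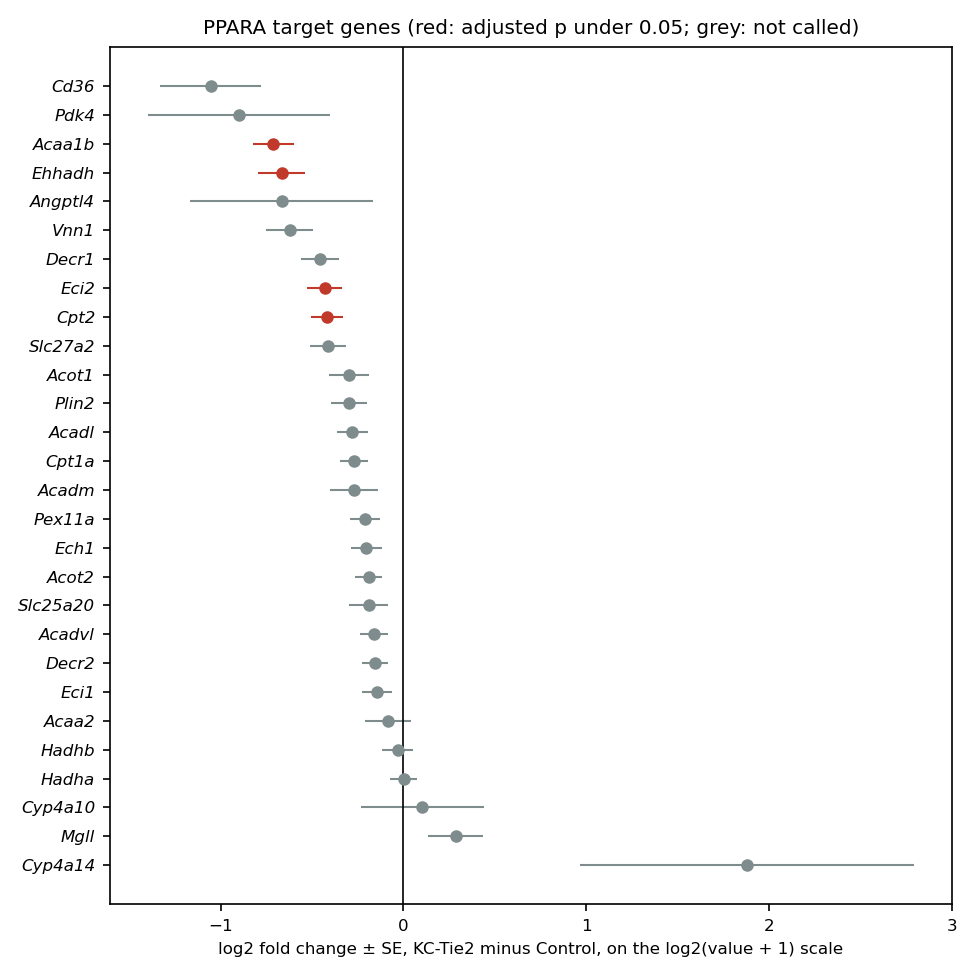
Log2 fold change with its SE for PPARA target genes, KC-Tie2 minus Control, ordered by value. The called genes Acaa1b, Ehhadh, Eci2 and Cpt2 lie between -0.71 and -0.42, and Cyp4a14 is farthest to the right at 1.88 with a wide SE.

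Rxra (ENSMUSG00000015846, chromosome 2, 27566452 to 27652969, mm39), the partner of PPARA and FXR, was among the steadiest members. It had 4022, 3839 and 4007 in KC-Tie2 kidneys and 4133, 3977 and 4239 in Control kidneys, ranges that overlap. The log2 fold change was -0.057 ± 0.065 (limma adjusted p = 0.751), and its 95% interval ran from -0.20 to 0.085. It was -0.024 with quantile normalization, -0.023 with voom, -0.036 without KC-Tie2 replicate 2 or Control replicate 3, and -0.066 without both libraries with adipocyte transcripts. The paralog Rxrb had 915, 896 and 900.04 in KC-Tie2 and 829, 817 and 944 in Control kidneys. The log2 ratio of Rxra to Rxrb was 2.13 ± 0.028 in KC-Tie2 and 2.26 ± 0.079 in Control kidneys (SD, n = 3 each), a difference of -0.13 with the groups apart. The exact permutation p of 0.10 for this ratio is the smallest possible and was 1 of 6 such tests.

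Nr1h4 (ENSMUSG00000047638, chromosome 10, 89290096 to 89369447, mm39), the bile acid receptor FXR, had 1448, 1767 and 2299.98 in KC-Tie2 kidneys and 2181, 1792 and 2312 in Control kidneys. KC-Tie2 replicate 3 lay with the Control libraries and the groups overlapped. The log2 fold change was -0.21 ± 0.19 with a 95% interval from -0.66 to 0.24 (limma adjusted p = 0.682, exact permutation p = 0.40). It was -0.38 without KC-Tie2 replicate 3 and -0.047 without KC-Tie2 replicate 1, -0.32 without Control replicate 2 and -0.13 without Control replicate 3, none called by limma, and -0.014 without both libraries with adipocyte transcripts. By the measure used for Ppara, the genes closest to Nr1h4 were Acadm (0.061), Wwp1 (0.062) and Idi1 (0.063). Acadm, the medium-chain acyl-CoA dehydrogenase and a PPARA target, had 8827, 10183 and 12415 in KC-Tie2 and 13161, 10891 and 13610.2 in Control kidneys.

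Genes linked to FXR gave no call in limma with all libraries, and 1 was called higher without KC-Tie2 replicate 1 and without both libraries with adipocyte transcripts. Of 14 listed, 7 were tested, 5 of them above 0, with a median log2 fold change of 0.27. These counts take no account of whether FXR raises or lowers a gene. Aqp2, at 0.86, is also among the distal tubule and collecting duct markers described below. At an unadjusted p under 0.05, 2 were higher and 1 lower, and the authors' deposited table calls 1 lower. Nr0b2, the repressor SHP and classic FXR target, was low, with 42.2, 40.8 and 33.6 in KC-Tie2 and 22.1, 34.7 and 41.9 in Control kidneys. Its log2 fold change, 0.27 ± 0.30, was the median of the 7. Abcc2, a conjugate export pump, had 8958, 10573 and 10495 in KC-Tie2 and 11835, 12112 and 12379.8 in Control kidneys (log2 fold change -0.28 ± 0.08, limma adjusted p = 0.118). Baat, the bile acid conjugating enzyme, had 42.2, 42.5 and 29.0 in KC-Tie2 and 18.9, 17.3 and 18.9 in Control kidneys (limma adjusted p = 0.147). The groups do not overlap for Abcc2 or Baat, and they lie in opposite directions.

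Ppargc1a (ENSMUSG00000029167, chromosome 5, 51611592 to 51725068, mm39), which encodes the coactivator PGC-1alpha, had the highest log2 fold change of the members. It had 3574, 3853 and 3723 in KC-Tie2 kidneys and 3207, 2986 and 3734 in Control kidneys, with Control replicate 3 inside the KC-Tie2 range. The log2 fold change was 0.17 ± 0.08 with a 95% interval from -0.011 to 0.36 (limma adjusted p = 0.360, exact permutation p = 0.30). It was 0.10 without Control replicate 2, 0.26 without Control replicate 3 and 0.18 without both libraries with adipocyte transcripts, and was called in none of these fits. Its paralog Ppargc1b had 767, 710.2 and 583 in KC-Tie2 and 834, 675 and 751 in Control kidneys. The log2 ratio of Ppargc1a to Ppargc1b was 2.44 ± 0.23 in KC-Tie2 and 2.13 ± 0.19 in Control kidneys (SD, n = 3 each, exact permutation p = 0.20). The difference of 0.31 was 0.20 without KC-Tie2 replicate 3.

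Both estrogen-related receptors had small log2 fold changes. Esrra (ENSMUSG00000024955, chromosome 19, 6888345 to 6899208, mm39) had 2215, 2309 and 2168 in KC-Tie2 kidneys and 2192, 2105 and 2104 in Control kidneys, with a log2 fold change of 0.064 ± 0.063 (95% interval -0.074 to 0.20, limma adjusted p = 0.703). Esrrg (ENSMUSG00000026610, chromosome 1, 187340988 to 187947082, mm39) had 2253, 2859 and 2504 in KC-Tie2 kidneys and 2467, 2308 and 2675 in Control kidneys, with a log2 fold change of 0.028 ± 0.091 (95% interval -0.17 to 0.23, limma adjusted p = 0.925). The groups overlapped for both, and the sign for Esrrg turned without KC-Tie2 replicate 2 (-0.061) or Control replicate 2 (-0.024). Without both libraries with adipocyte transcripts the log2 fold change was 0.088 for Esrra and 0.11 for Esrrg. The log2 ratio of Esrrg to Esrra was 0.18 ± 0.14 in KC-Tie2 and 0.22 ± 0.11 in Control kidneys (SD, n = 3 each, exact permutation p = 0.80). The third receptor of the family, Esrrb, had 1509.97, 1677 and 1372 in KC-Tie2 and 1209, 978 and 1469 in Control kidneys (limma adjusted p = 0.333).

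Mitochondrial genes under the estrogen-related receptors and PGC-1alpha gave no call in limma as first fitted, but 3 were called higher with quantile normalization and 1 with library weights, with voom and without KC-Tie2 replicate 3. Of 30 tested, 17 were above 0 and 13 below, with a median log2 fold change of 0.033. At an unadjusted p under 0.05, 5 were higher and 1 lower, where 15.3% of all genes passed in either direction. The authors' deposited table calls 1 higher. Slc25a4, which encodes the ADP/ATP carrier, had 4279, 5107 and 4308 in KC-Tie2 and 3743, 3425 and 3577 in Control kidneys, groups that do not overlap (log2 fold change 0.35 ± 0.08, limma adjusted p = 0.0599). Cox6a1, a subunit of cytochrome oxidase, had 5317, 5563 and 5254 in KC-Tie2 and 4679.9, 4387 and 4721 in Control kidneys, also apart (limma adjusted p = 0.123).

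Maf (ENSMUSG00000055435, chromosome 8, 116409681 to 116434533, mm39) had 7126, 8428 and 8414 in KC-Tie2 kidneys and 6306, 8401 and 7939 in Control kidneys. Replicate 1 was the lowest of its genotype in both, and the groups overlapped. The log2 fold change was 0.088 ± 0.11 (95% interval -0.16 to 0.34, limma adjusted p = 0.783), and it turned to -0.036 without Control replicate 1. It was 0.18 with quantile normalization, 0.17 without KC-Tie2 replicate 1 or Control replicate 2, and 0.044 without both libraries with adipocyte transcripts. Of 12 tested macrophage markers 3 rose, the complement genes C1qa, C1qb and C1qc, where 0.855% of all genes tested were called higher. Whether these 3 calls hold with single libraries left out is not reported here. In all, 11 of the 12 markers were above 0. The markers summed to 2864, 3181 and 2549 in KC-Tie2 and 1925, 2319 and 2434 in Control libraries. More of the sum came from Csf1r than from any other marker, and the part of macrophages in the Maf values was not tested.

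Among 8 tested relatives and partners of Maf none was called by limma, and the authors' deposited table calls 0. At an unadjusted p under 0.05, 3 were higher and 2 lower. Without KC-Tie2 replicate 3, limma called 1 lower. Bach2, a repressor that pairs with small Maf proteins, had 263, 289 and 379 in KC-Tie2 and 463, 414 and 376 in Control kidneys (log2 fold change -0.44 ± 0.14, limma adjusted p = 0.151).

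**Figure D4:**
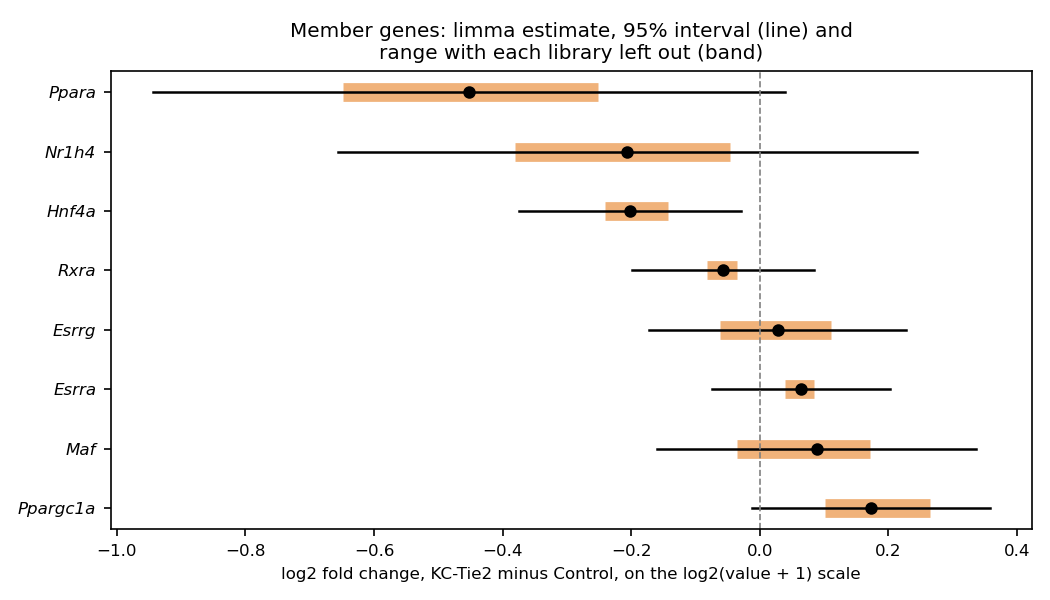
Log2 fold change of each member, KC-Tie2 minus Control, with its 95% interval as a line and the range over fits with each library left out as a band. Of the 8 intervals, that of Hnf4a alone lies below 0, from -0.37 to -0.029, and the bands of Esrrg and Maf cross 0.

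Other nuclear receptors held a single call, the vitamin D receptor. Vdr fell, with 5265, 5836 and 5861 in KC-Tie2 against 8031, 6836 and 7651 in Control kidneys (log2 fold change -0.41 ± 0.08, limma adjusted p = 0.0313). Of 17 receptors tested 8 were below 0, and the median log2 fold change was 0.069. The call of Vdr was lost without KC-Tie2 replicate 1 or 2, without Control replicate 1 or 3, and without both libraries with adipocyte transcripts. Ppard, the closest relative of Ppara in the kidney, had 738, 835 and 854 in KC-Tie2 and 644, 914 and 656 in Control kidneys. The log2 ratio of Ppara to Ppard was 0.88 ± 0.16 in KC-Tie2 and 1.48 ± 0.66 in Control kidneys (SD, n = 3 each, exact permutation p = 0.30). The difference of -0.60 was -0.31 without Control replicate 1, -0.96 without Control replicate 2 and -0.39 without both libraries with adipocyte transcripts. Pparg, the fat cell receptor of the family, was low, with 63.3, 30.01 and 32.7 in KC-Tie2 and 91.4, 50.4 and 52.8 in Control kidneys, and was highest in the library with the most adipocyte transcripts in each genotype.

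Coregulators spanned a narrow range. Of 18 tested none was called by limma, 1 had an unadjusted p under 0.05, and the authors' deposited table calls 0. Their log2 fold changes lay between -0.22 and 0.12, with a median of -0.020. Sirt3, the mitochondrial deacetylase, was the lowest, with 1093, 1221 and 1076 in KC-Tie2 and 1372, 1147.5 and 1452 in Control kidneys (limma adjusted p = 0.274). The corepressor gene Ncor1 had 6819, 6640.3 and 7348 in KC-Tie2 and 7693, 7586 and 7496 in Control kidneys (limma adjusted p = 0.404).

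**Figure D5:**
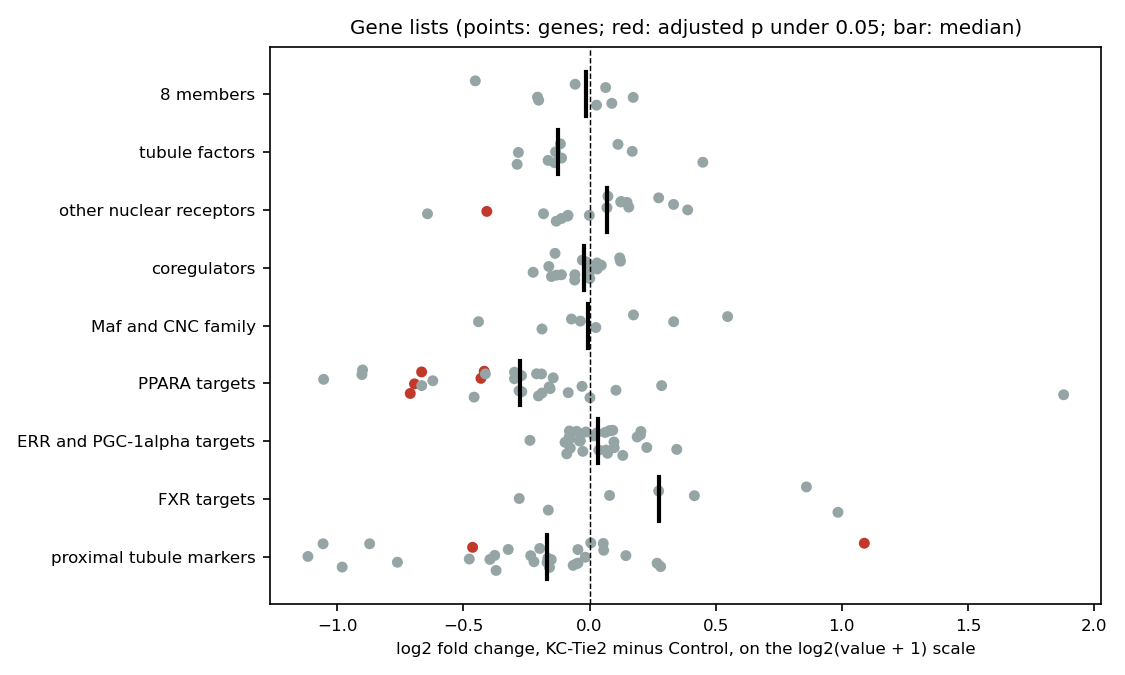
Log2 fold changes of the members and of the related gene lists, KC-Tie2 minus Control; points are genes, red ones have an adjusted p under 0.05, and bars are medians. The PPARA targets have the lowest median, -0.27, and hold 5 of the 8 called genes shown.

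Of 11 markers of the distal tubule and collecting duct 1 rose, the calcium-binding protein gene Calb1, and 10 were above 0, with a median of 0.25. Of 6 loop of Henle markers none was called by limma, and 4 were above 0, with a median of 0.14. At an unadjusted p under 0.05, 2 were higher and 0 lower, and the authors' deposited table calls 2 higher. Of 5 podocyte markers none was called by limma, and all 5 were above 0, with a median of 0.28. At an unadjusted p under 0.05, 4 were higher and 0 lower, where 7.57% of all genes were higher. The authors' deposited table calls 1 podocyte marker higher. Sums of the distal and collecting duct markers were 63709, 67017 and 57929 in KC-Tie2 and 53800.1, 57509.7 and 48534 in Control libraries, in the opposite direction to the proximal tubule sum. Their part in the results above was not tested.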

How the data were processed

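The 3 KC-Tie2 and 3 Control libraries of poly(A)-selected kidney RNA were grouped by their titles, and table columns were matched by library name. The deposited expression values are normalized counts, taken here as a library-scaled signal. The submitters' processing notes name Partek 12.5.0, STAR, DESeq2 and mm39 without roles. Annotation release and strand use were not stated. Depth before scaling is not printed. All members had at least 1379.6 in every library. Per the file headers, the other deposited table gives, from the authors, a p-value with its step-up FDR, a ratio of means and a signed fold change (a score below 0 when lower). It was copied, not retested, and heads its control group WT. The table's end positions were read as 1 base before the listed stop.

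Values were taken as log2(value + 1). Genes at a mean of 10 or more (17539) entered limma 3.58.1 (R 4.3.3; lmFit, then eBayes, trend and robust), two-sided, with Benjamini-Hochberg adjustment, and called under 0.05. Only called genes are said to rise or fall. The alternatives tried were each library left out, TMM, quantile normalization, voom, library weights, the replicate block, eBayes without robust, a minimum mean of 100 or none, and a pseudocount of 0.5 or 5. Exact permutation tests compared single values. The fit was tested on simulated data. The members and lists were chosen with earlier results of these data known. From each list up to 4 called genes, or the 2 with the smallest p, were to be named. Cpt2, Cd36, Cyp4a14, Cyp4a10, Slc27a2, Nr0b2, Aqp2, Pparg, Esrrb, Ucp1, Csf1r, Lrp2, Kap, Slc34a1 and Hnf4aos were named after their values were seen. Hnf4g, Ppard, Rxrb and Ppargc1b were named as partners in the ratios. Some genes of the lists are counted but not reported here. Exon lengths came from GENCODE M21 (13604 of 17539 tested genes matched). Python 3.11.15 was used for tables and figures.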

Additional observations from a re-analysis of the deposited data

How the results depend on the processing

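The 0 called members held in 15 of 16 alternatives, and without Control replicate 2 there was 1. With libraries left out in turn, members called lower ranged from 0 to 1, whole-table calls from 25 to 311 higher (150 with all libraries) and 18 to 371 lower (147 with all libraries), fallen PPARA targets from 0 to 9, the log2 fold change of Esrrg from -0.061 to 0.11 and of Maf from -0.036 to 0.171, the log2 ratio difference of Esrrg to Esrra from -0.10 to 0.042 and of Hnf4a to Hnf4g from -0.080 to 0.255, and proximal tubule markers called from 0 to 2 higher and 0 to 4 lower. Without both libraries with adipocyte transcripts, an alternative chosen after seeing the data, the whole table gave 15 higher and 5 lower, and the PPARA targets and proximal tubule markers 0 in each direction. Whether libraries with the same replicate number belong together cannot be decided from 3 a genotype. The deviations of same-numbered libraries correlated at 0.178, -0.0956 and 0.0173. KC-Tie2 replicates 1 and 3 matched their own number best, while KC-Tie2 replicate 2 matched Control replicate 3 best, at 0.26. Both libraries with adipocyte transcripts were replicate 1. The fit with the replicate block gave 259 higher and 322 lower genes, 8 fallen PPARA targets and 9 fallen proximal tubule markers, and called no member. Library weights gave 263 higher and 286 lower genes, 8 fallen PPARA targets and 2 fallen proximal tubule markers. Voom gave 8 fallen PPARA targets, eBayes without robust 3 fallen proximal tubule markers, and a mean of at least 100 gave 0. The sign turned for Esrrg without KC-Tie2 replicate 2 (-0.061) or Control replicate 2 (-0.024) and for Maf without Control replicate 1 (-0.036). It also turned for the log2 ratio of Esrrg to Esrra without KC-Tie2 replicate 1 (0.042), without Control replicate 3 (0.029) and without both adipocyte libraries (0.019), and for Hnf4a to Hnf4g without Control replicate 3 (-0.080). The cause was not tested. With 3 libraries a genotype, intervals as wide as those of Ppara and Nr1h4 cannot show small differences.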

Other observations

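For the fatty acid omega-hydroxylases Cyp4a10 and Cyp4a14, which are part of the sum of the PPARA targets, Control replicate 3 stood apart from that sum. It had 323 normalized counts of Cyp4a14 and 4631 of Cyp4a10, the lowest of all 6 libraries for both, while the target sum of that library, 215269.9, lay within the range of the other Control libraries. KC-Tie2 replicate 3 had 5688 of Cyp4a14 and 9922 of Cyp4a10, the highest of all 6 libraries for both, and it was also the highest KC-Tie2 library in the target sum. Cyp4a10 had a log2 fold change of 0.10 ± 0.34 (limma adjusted p = 0.926), with overlapping groups. These genes were picked after their values were seen, and reads of the Cyp4a genes can be split among close copies.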
